A study of Mus musculus with 6 samples.

Results

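The genes described here are 38 genes that copy DNA in S phase or prepare cells for it. They were chosen by symbol from the gene column of the deposited table, with earlier results of these data known. All 38 were among its 24054 rows. They comprise the MCM helicase, origin licensing factors, replicative polymerases, the sliding clamp and its loader, enzymes that supply nucleotides, and regulators of the step from G1 to S phase. Of the 38, 36 had a mean value of at least 1 over all libraries and were tested, while Orc1 and Mcm10 were below it.

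Lung RNA of 6 female SCID mice, which lack mature B and T cells, was sequenced, with 3 mice in each of 2 groups. All mice received fluorescently labelled CD9+CD63+CD81+ extracellular vesicles (EVs), membrane-bound particles that cells release, through the tail vein. The vesicles came from cultured neural progenitors of E15.5 mouse embryos that were Tsc1-null in the Tsc1-null EV group and wild type in the WT EV group. The Tsc1 protein, hamartin, is part of a brake on mTORC1, a kinase that promotes growth. Every mouse was given 500000 rat ELT3 cells, a model of lymphangioleiomyomatosis (LAM), intravenously 48 h after the vesicles, and lungs were collected 72 h after that. The comparison asks whether the genotype of the cells that made the vesicles matters for lung transcripts. The genotype in the labels is that of the donor cells, since the recipients were SCID mice in both groups. Lungs given no vesicles or no ELT3 cells were not analysed here, and the sources used here give neither the age of the mice nor the number of embryos behind each progenitor culture. Each library was taken as 1 mouse, and the p-values measure the spread between these samples.

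Replication starts at origins, where the origin recognition complex with Cdc6 and Cdt1 loads the MCM ring in G1. In S phase Cdc45 and the GINS complex turn the ring into the active CMG helicase. DNA polymerase alpha with its primase then starts each strand, polymerases epsilon and delta extend it, and Pcna, loaded by the Rfc complex, holds them on the template. Many of these genes are transcribed as cells enter S phase, under the E2F transcription factors. In adult lung most cells are quiescent, so transcripts of this kind come from a minority of cells. In whole lung RNA, more dividing cells and more transcript per dividing cell cannot be told apart.

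Promoter sequences of these genes were taken from RefSeq on build GRCm38.p6 as the 250 bases before and 50 after each annotated start. Promoters were found for 32 of the 38 genes, the others being Ccne2, Gins1, Gins2, Gmnn, Mcm4 and Pole. E2F letters, here the word TTCGCGC and the related words TTGGCGC and also TTCCCGC and lastly TTGCCGC on either strand, were present in the promoters of 21 of the 32 genes (65.6%), against 18.7% of 10570 tested genes with a promoter. Matches on both strands that overlap were counted separately. For Cdc6, Dut, E2f1 and Mcm7 every window lay inside the gene's GENCODE M21 span. The bases before the outermost start of these genes were therefore not searched. The letters of the cell cycle homology region (CHR; TTTGAA or TTCGAA), an element of mitotic genes, were in 5 of the 32 (15.6%), close to the 16.2% of tested genes. CCAAT, the box bound by NF-Y, was in 18 of the 32 (56.2%), against 42.2% of tested genes. Of 25 mitotic genes with a promoter, by contrast, 4 (16%) held E2F letters, 20 (80.0%) CHR letters and 21 (84.0%) CCAAT. The promoters of 4 genes are shown, written along the gene's strand from 5′ to 3′ with E2F letters in capitals. Mcm6 (chr1:128359656-128359955, minus strand) and Uhrf1 (chr17:56303087-56303386, plus strand) are the genes with the largest differences between groups, Pola1 (chrX:93632106-93632405, minus strand) is a further gene that was higher in each of the 3 Tsc1-null EV lungs, and Tyms (chr5:30073576-30073875, minus strand) is the gene whose values departed most from those of its group.
Mcm6: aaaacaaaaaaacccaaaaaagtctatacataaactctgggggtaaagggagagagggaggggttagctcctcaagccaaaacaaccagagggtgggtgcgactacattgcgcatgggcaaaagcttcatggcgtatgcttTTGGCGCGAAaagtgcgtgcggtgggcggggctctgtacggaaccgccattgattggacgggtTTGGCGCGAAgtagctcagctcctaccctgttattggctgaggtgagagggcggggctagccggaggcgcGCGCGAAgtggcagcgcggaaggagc
Uhrf1: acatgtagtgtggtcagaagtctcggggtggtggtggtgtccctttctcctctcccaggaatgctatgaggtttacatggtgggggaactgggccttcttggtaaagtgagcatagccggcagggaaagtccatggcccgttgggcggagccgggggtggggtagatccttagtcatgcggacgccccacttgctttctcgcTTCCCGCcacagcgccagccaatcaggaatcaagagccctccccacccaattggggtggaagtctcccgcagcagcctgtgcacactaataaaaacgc
Pola1: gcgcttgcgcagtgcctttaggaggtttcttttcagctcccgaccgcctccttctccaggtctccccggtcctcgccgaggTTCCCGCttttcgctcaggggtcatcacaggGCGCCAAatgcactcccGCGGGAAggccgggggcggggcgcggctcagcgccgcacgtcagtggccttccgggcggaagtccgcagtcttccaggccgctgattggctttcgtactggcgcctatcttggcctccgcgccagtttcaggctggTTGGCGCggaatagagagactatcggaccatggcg
Tyms: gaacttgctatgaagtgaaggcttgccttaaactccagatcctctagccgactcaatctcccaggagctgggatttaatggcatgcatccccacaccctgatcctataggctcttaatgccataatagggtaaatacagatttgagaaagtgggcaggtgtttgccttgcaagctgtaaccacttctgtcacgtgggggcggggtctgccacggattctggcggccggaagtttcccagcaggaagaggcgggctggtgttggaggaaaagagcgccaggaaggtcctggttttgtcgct
The Mcm6 promoter held 5 matches, 4 of them in overlapping pairs on opposite strands, the Pola1 promoter held 4, the Uhrf1 promoter shown held 1, and the Tyms promoter held 0. A match describes letters in the window and not binding.

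**Figure D1:**
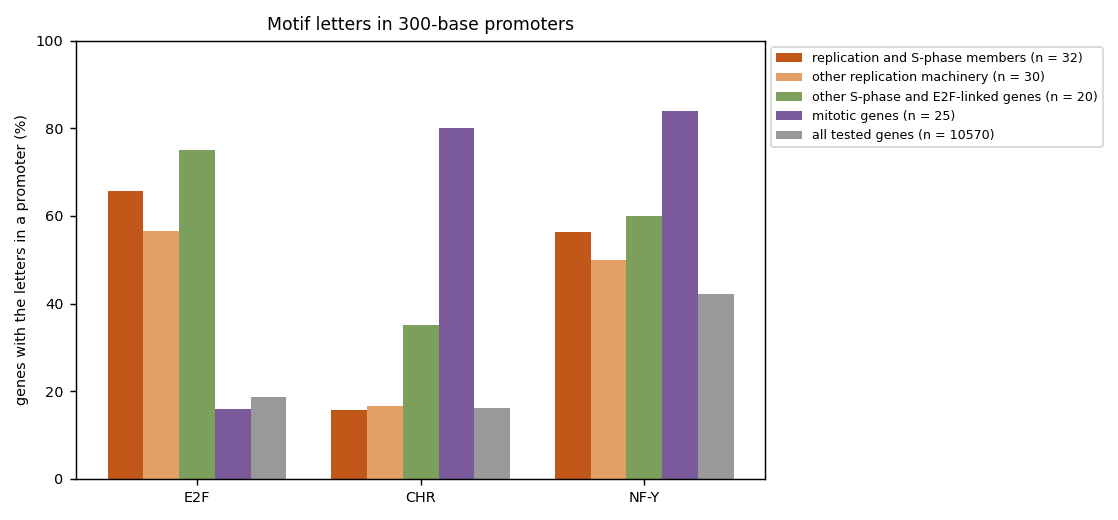
Share of genes, in percent, whose 300-base RefSeq promoter holds E2F, CHR or NF-Y letters on either strand; bars are gene sets, with the number of genes with a promoter in the legend. The replication and S-phase genes stand at 65.6% for E2F letters and 15.6% for CHR letters, and the mitotic genes at 16% and 80.0%.

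Values are TMM-normalized CPM as deposited by the authors, which express each gene's reads relative to a library total scaled by TMM. Whole reads could be recovered from them, with totals of 5101413 to 9358820 per library. Lung markers were present in every library, with the surfactant protein gene Sftpc at 13094 to 29628 CPM in Tsc1-null EV lungs and 17290 to 22064 CPM in WT EV lungs. A pair of libraries stood apart from the rest, Tsc1-null EV replicate 1 and WT EV replicate 2, with median correlations to the other libraries of 0.942 and 0.963 against 0.980 to 0.982 elsewhere. Malat1, a nuclear long noncoding RNA, stood at 30060 CPM in Tsc1-null EV replicate 1 and 15673 CPM in WT EV replicate 2, against 1609 to 2819 CPM in the other 4 libraries. Results are therefore also given without these 2 libraries. The labels name no batch, and the sample numbers run through one group and then the other, so any handling order that followed them cannot be told apart from vesicle genotype.

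Most replication genes had somewhat higher average values in Tsc1-null EV lungs than in WT EV lungs, but no gene passed the test. Of the 36 tested genes, 30 had a log2 fold above 0 (83.3%, where 47.3% of all 14159 tested genes did), with a median of 0.31 against -0.02 for all tested genes. Folds are Tsc1-null EV over WT EV on the log2(value + 1) scale, which understates those of genes with low values. The 3 Tsc1-null EV values all lay above the 3 WT EV values for 11 genes (30.6%, where 6.86% of all tested genes did) and all below for 2 genes (5.56%, where 6.22% did). In limma's moderated test, 0 of the 36 had an adjusted p under 0.05, as did 0% of all tested genes, and the smallest adjusted p among them was 0.721. At an unadjusted p under 0.05, limma placed 6 of the 36 on the higher side (3.6% of all tested genes) and 0 on the lower side (2.97%), while over all tested genes 930 (6.57%) reached that level. On the recovered reads edgeR's quasi-likelihood test called 0 of 13873 genes, with 962 (6.93%) at an unadjusted p under 0.05. DESeq2 gave a p-value for 18434 genes, with 962 (5.22%) at that level, and called 12 (0.0651% of the 18434). Not all of the 18434 had an adjusted p, so fewer could be called. Of the 38 genes 18 had one, and none of the 12 calls was among the 38.

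**Figure D2:**
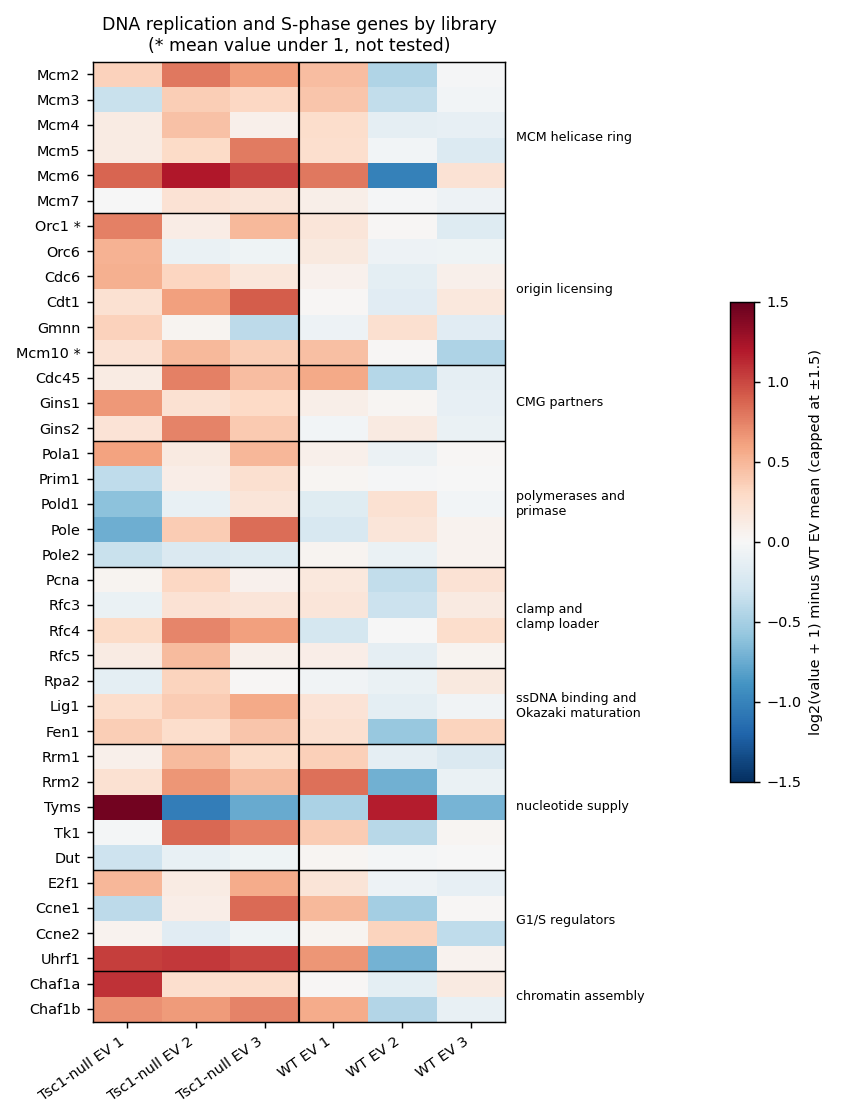
Heat map of the 38 genes (rows, by role) in the 3 Tsc1-null EV and 3 WT EV libraries (columns), coloured by log2(value + 1) minus the WT EV mean; an asterisk marks the 2 genes below a mean of 1. The Tsc1-null EV columns are mostly red, WT EV replicate 2 holds the lowest value of 19 of the 36 tested genes, and Tyms is high in Tsc1-null EV replicate 1 and WT EV replicate 2.

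The WT EV lungs differed among themselves by as much as the groups did. Averaged over the 36 genes, the level relative to the WT EV mean was 0.21, 0.33 and 0.34 in the Tsc1-null EV libraries, against 0.18, -0.15 and -0.02 in the WT EV libraries (log2 units). The groups thus did not overlap in this average, but WT EV replicate 1 lay just under Tsc1-null EV replicate 1. WT EV replicate 2 held the lowest value for 19 of the 36 genes (52.8%, where it did for 23.3% of all tested genes), and WT EV replicate 3 for 7. The highest value fell in Tsc1-null EV replicate 2 for 14 genes and in replicate 3 for 9. Without Tsc1-null EV replicate 1 and WT EV replicate 2 the median log2 fold was 0.21, with 30 of 36 above 0 (49.5% of all tested genes), and 18 genes (50.0%) were higher in both remaining Tsc1-null EV lungs, where 20.8% of all tested genes were. Higher without overlap were also 18 (50.0%) without Tsc1-null EV replicate 1 alone, where 14.9% of all tested genes were, and 20 (55.6%) without WT EV replicate 1, where 13.1% were. Without WT EV replicate 2 the count was 11 (30.6%), where 10.7% of all tested genes were. With any other library left out it was 12 or 13 (33.3% to 36.1%, against 9.10% to 13.2%). The call of single genes depended on how the libraries were weighted. Limma's sample weights were 0.21, 3.95 and 0.78 for Tsc1-null EV replicates 1, 2 and 3, and 0.93, 0.39 and 4.19 for WT EV replicates 1, 2 and 3. Each weighted group thus leaned mostly on 1 library. With these weights 8 of the 36 genes (22.2%) had a limma adjusted p under 0.05, all of them higher in Tsc1-null EV lungs. Of all tested genes 7.42% were called and 4.12% were called higher. The 8 genes were Mcm2, Mcm6, Gins2, Lig1, Rrm1, Tk1, Uhrf1 and Chaf1b.

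Mcm2 to Mcm7 encode the 6 related subunits of the ring that unwinds DNA, and all 6 had log2 folds above 0, from 0.11 for Mcm3 to 1.03 for Mcm6. Mcm6 stood at 16.8, 21.2 and 18.4 CPM in Tsc1-null EV lungs, against 15.9, 3.82 and 10.2 CPM in WT EV lungs (log2 fold 1.03 ± 0.40 SE, limma adjusted p = 0.721). All 3 Tsc1-null EV lungs were higher, though WT EV replicate 1 lay close beneath them and WT EV replicate 2, with 26 reads, lay far below. The log2 fold was 0.52 when WT EV replicate 2 was left out, 1.42 when replicate 1 of that group was, and 0.60 without both libraries that stood apart. Mcm2 was at 18.2, 25.2 and 22.5 CPM in Tsc1-null EV lungs and 19.9, 10.1 and 14.1 CPM in WT EV lungs (log2 fold 0.59 ± 0.25 SE, limma adjusted p = 0.721). Here WT EV replicate 1 reached into the Tsc1-null EV range. Mcm5 showed the same arrangement, at 8.22, 9.27 and 13.5 CPM in Tsc1-null EV lungs and 9.03, 7.20 and 6.29 CPM in WT EV lungs. Mcm3, Mcm4 and Mcm7 overlapped widely, with log2 folds of 0.11, 0.21 and 0.13. Mcm7 was also the steadiest of the 6, between 24.1 and 28.1 CPM in Tsc1-null EV lungs and between 22.9 and 25.9 CPM in WT EV lungs. Its own level is uncertain, since 34.2% of the 50-base words of its transcript also occur in other genes, chiefly Gm5487, and 10.8% of its exon bases lie under Ap4m1 on the opposite strand.

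The subunits of the ring were not equally abundant even after division by transcript length. In Tsc1-null EV lungs the order per kilobase was Mcm4 at 9.96 ± 1.42 CPM per kb (SD, n = 3), Mcm7 at 8.97 ± 0.74, Mcm3 at 6.97 ± 1.81, Mcm2 at 6.53 ± 1.05, Mcm6 at 6.47 ± 0.77 and Mcm5 at 3.05 ± 0.82. In WT EV lungs it was Mcm4 at 8.59 ± 1.45 CPM per kb (SD, n = 3), Mcm7 at 8.17 ± 0.50, Mcm3 at 6.44 ± 1.85, Mcm2 at 4.36 ± 1.45, Mcm6 at 3.43 ± 2.07 and Mcm5 at 2.22 ± 0.41. The order was the same in both groups. Mcm2 and Mcm6 differed by less than either SD in each group, and so did Mcm4 and Mcm7 in WT EV lungs, while in Tsc1-null EV lungs the gap between Mcm4 and Mcm7 exceeded the SD of Mcm7 but not that of Mcm4. In Tsc1-null EV lungs Mcm3 also differed from Mcm2 and from Mcm6 by less than either SD. Mcm5 lay clear of Mcm6 in Tsc1-null EV lungs but not in WT EV lungs. Lengths were those of the principal GENCODE M21 transcript.

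**Figure D3:**
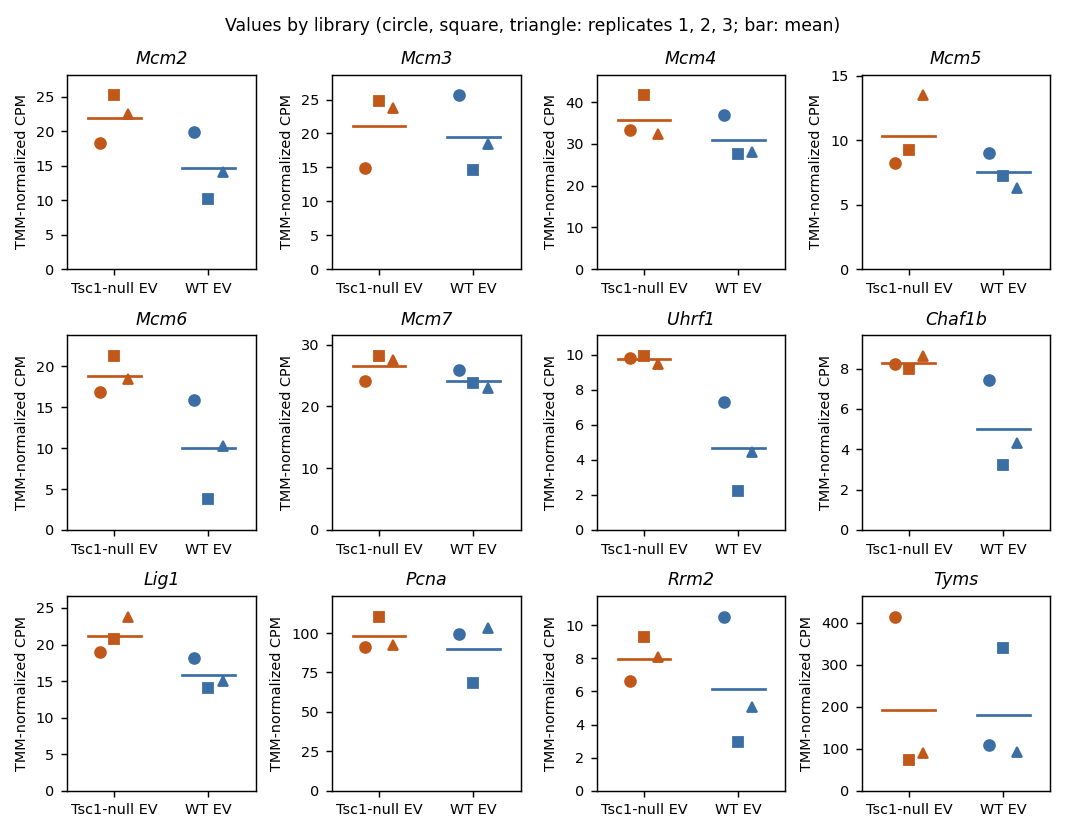
TMM-normalized CPM of 12 genes in each library; circles, squares and triangles are replicates 1, 2 and 3, bars are group means, and each vertical axis starts at 0. Mcm6, Uhrf1, Chaf1b and Lig1 are higher in all 3 Tsc1-null EV lungs, while Tyms reaches 413 CPM in Tsc1-null EV replicate 1 and 341 CPM in WT EV replicate 2.

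Among the licensing factors, Cdt1 and Cdc6, which load the ring onto origins, were higher in each of the 3 Tsc1-null EV lungs, while the Cdt1 inhibitor geminin (Gmnn) overlapped between groups. Cdt1 stood at 3.81, 5.28 and 6.74 CPM in Tsc1-null EV lungs, against 3.17, 2.65 and 3.58 CPM in WT EV lungs (log2 fold 0.58 ± 0.25 SE, limma adjusted p = 0.721). Its groups nearly met, since Tsc1-null EV replicate 1 held 19 reads and 1 read there stood for 0.200 CPM. Cdc6 was at 3.41, 2.80 and 2.43 CPM in Tsc1-null EV lungs and 2.20, 1.76 and 2.22 CPM in WT EV lungs (log2 fold 0.34 ± 0.24 SE, limma adjusted p = 0.779). For Cdc6 the gap between the lowest Tsc1-null EV lung and the highest WT EV lung rests on 12 to 26 reads per library. Gmnn was at 19.6, 15.6 and 11.4 CPM in Tsc1-null EV lungs and 14.4, 18.1 and 13.4 CPM in WT EV lungs, and its highest value in each group was in the library that stood apart. Orc6, a subunit of the origin recognition complex, was at 19.4, 12.3 and 12.6 CPM in Tsc1-null EV lungs and 14.8, 12.5 and 12.6 CPM in WT EV lungs, highest in replicate 1 of each group and level in the other 4 libraries. Orc1, the subunit that binds Cdc6, was read 7, 5 and 9 times in Tsc1-null EV libraries and 5, 3 and 2 times in WT EV libraries. Mcm10, which helps activate the helicase, was read 5, 13 and 11 times in Tsc1-null EV libraries and 11, 5 and 2 times in WT EV libraries. At these counts no difference in Orc1 or Mcm10 could be judged. The 4 tested licensing factors were all above 0, with a median log2 fold of 0.23, but without both libraries that stood apart 2 of 4 were, with a median of 0.06.

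Cdc45 and the GINS subunits Gins1 and Gins2, which complete the active helicase, had log2 folds of 0.39 to 0.45. Gins1, on only 10 to 18 reads per library, was at 2.81, 1.83 and 1.99 CPM in Tsc1-null EV lungs, against 1.59, 1.47 and 1.23 CPM in WT EV lungs. The groups did not overlap (limma adjusted p = 0.766), but the gap between them rests on few reads. Gins2, on 11 to 34 reads per library, was at 2.21, 3.67 and 2.65 CPM in Tsc1-null EV lungs and 1.71, 2.06 and 1.60 CPM in WT EV lungs, also without overlap (limma adjusted p = 0.741). Its value is uncertain because 70.7% of its exon bases lie under Gse1 on the opposite strand, and the sources used here do not give the use of strand. Gse1 itself averaged 58.1 CPM in Tsc1-null EV lungs and 58.3 CPM in WT EV lungs. Cdc45 was at 2.41, 4.31 and 3.31 CPM in Tsc1-null EV lungs and 3.66, 1.32 and 1.85 CPM in WT EV lungs, where WT EV replicate 1 was above 2 of the 3 Tsc1-null EV lungs.

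The polymerases and primase had no common direction, with 2 of 5 log2 folds above 0 and a median of -0.01. Without both libraries that stood apart 4 of 5 were above 0, with a median of 0.16. Pola1, the catalytic subunit of polymerase alpha, was at 9.62, 6.69 and 8.84 CPM in Tsc1-null EV lungs, against 6.34, 5.59 and 6.05 CPM in WT EV lungs (log2 fold 0.41 ± 0.21 SE, limma adjusted p = 0.721). All 3 Tsc1-null EV lungs were higher, replicate 2 only slightly. Pole2, the second subunit of polymerase epsilon, lay on the other side, at 2.21, 2.48 and 2.54 CPM in Tsc1-null EV lungs and 3.17, 2.79 and 3.21 CPM in WT EV lungs (log2 fold -0.25 ± 0.22 SE, limma adjusted p = 0.827). It lay lower in all 3 Tsc1-null EV lungs, on 11 to 26 reads per library. Pole, the catalytic subunit, ranged from 1.00 to 4.97 CPM in Tsc1-null EV lungs and from 1.83 to 2.79 CPM in WT EV lungs, its lowest value being in Tsc1-null EV replicate 1. Prim1, the catalytic primase subunit, and Pold1, the catalytic subunit of polymerase delta, were likewise lowest in Tsc1-null EV replicate 1 and had log2 folds of -0.01 and -0.18. Without that library the log2 folds of Pold1 and Prim1 were above 0, at 0.03 and 0.17.

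Pcna, the sliding clamp, differed little between groups although it was among the most abundant of the genes. It was at 91.0, 110.1 and 92.7 CPM in Tsc1-null EV lungs, against 99.2, 68.2 and 103.1 CPM in WT EV lungs (log2 fold 0.14 ± 0.19 SE, limma adjusted p = 0.908). Only WT EV replicate 2 stood clear of the rest, and 31.8% of the transcript's 50-base words also occur in Pcna-ps2. Per kilobase, Pcna averaged 64.5 ± 6.96 CPM in Tsc1-null EV lungs and 59.4 ± 12.6 CPM in WT EV lungs (SD, n = 3 each), above every subunit of the MCM ring. Of the clamp loader, Rfc4 was at 4.01, 5.82 and 5.30 CPM in Tsc1-null EV lungs and 2.44, 3.09 and 3.95 CPM in WT EV lungs (log2 fold 0.54 ± 0.24 SE, limma adjusted p = 0.721). Rfc4 did not overlap, although replicate 1 of Tsc1-null EV and replicate 3 of WT EV nearly met, and 13.4% of its exon bases lie under Eif4a2 on the opposite strand. Rfc3 and Rfc5 overlapped, with log2 folds of 0.10 and 0.22.

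Of the genes that finish the lagging strand, Lig1, the ligase that seals Okazaki fragments, was at 19.0, 20.8 and 23.8 CPM in Tsc1-null EV lungs, against 18.2, 14.1 and 15.1 CPM in WT EV lungs (log2 fold 0.41 ± 0.18 SE, limma adjusted p = 0.721). All 3 Tsc1-null EV lungs were higher, and its log2 fold stayed between 0.32 and 0.51 with any 1 library left out. Fen1, the flap nuclease acting before Lig1, was at 11.0, 10.2 and 11.5 CPM in Tsc1-null EV lungs and 10.0, 5.29 and 10.7 CPM in WT EV lungs, with WT EV replicate 2 alone far below. Its log2 fold of 0.35 was 0.07 without that library. Most of the Fen1 transcript (80.4% of its exon bases) lies under the antisense gene Gm10143. Rpa2, a subunit of the protein that coats single-stranded DNA, overlapped between groups, with a log2 fold of 0.07.

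The enzymes that supply deoxynucleotides split into several patterns. Rrm2, the S-phase subunit of ribonucleotide reductase, was at 6.62, 9.27 and 8.06 CPM in Tsc1-null EV lungs, against 10.5, 2.94 and 5.06 CPM in WT EV lungs (log2 fold 0.46 ± 0.37 SE, limma adjusted p = 0.810). The lowest and the highest value were both in WT EV lungs. Rrm1, the large subunit, also overlapped between groups, with 32.9, 43.8 and 38.4 CPM in Tsc1-null EV lungs and 40.1, 28.4 and 26.7 CPM in WT EV lungs. Its highest value was in a Tsc1-null EV lung and its lowest in a WT EV lung. Tk1, which salvages thymidine, was at 2.81, 6.04 and 5.52 CPM in Tsc1-null EV lungs and 4.03, 1.91 and 2.96 CPM in WT EV lungs (log2 fold 0.53 ± 0.32 SE, limma adjusted p = 0.751). Its Tsc1-null EV replicates 2 and 3 stood above all WT EV lungs and replicate 1 did not. Dut, which removes dUTP, was lower in each of the 3 Tsc1-null EV lungs, at 13.6, 15.7 and 16.3 CPM against 17.6, 16.8 and 17.2 CPM in WT EV lungs, a log2 fold of -0.16 ± 0.16 SE that was about as large as its error (limma adjusted p = 0.851).

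Tyms, thymidylate synthase, had a pattern that the other enzymes of nucleotide supply did not share. It was at 413, 72.7 and 88.9 CPM in Tsc1-null EV lungs and 108, 341 and 92.7 CPM in WT EV lungs (log2 fold -0.11 ± 0.68 SE, limma adjusted p = 0.981). The 2 high values fell in the libraries that stood apart, where Malat1 was also high and where the ribosomal RNA precursor Rn45s stood at 13776 CPM in Tsc1-null EV replicate 1 and 10881 CPM in WT EV replicate 2, against 3293 to 6120 CPM in the other libraries. The part of these RNAs in the Tyms values was not tested. Without both libraries its log2 fold was -0.31. Rrm2 and Tk1, in contrast, had the lowest value of each group in those same 2 libraries. The Tyms gene spans bases 30058202 to 30073617 of chromosome 5, minus strand (GRCm38, GENCODE M21), and 11.1% of its transcript's 50-base words also occur in other genes.

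Among the 4 regulators, Uhrf1 was the 1 whose groups did not overlap. Uhrf1 brings the maintenance methyltransferase to newly copied DNA, and it was at 9.82, 9.92 and 9.50 CPM in Tsc1-null EV lungs, against 7.32, 2.20 and 4.44 CPM in WT EV lungs (log2 fold 1.03 ± 0.33 SE, limma adjusted p = 0.721). The Tsc1-null EV lungs were tightly grouped and the WT EV lungs were spread out, at 9.75 ± 0.22 CPM in Tsc1-null EV lungs and 4.65 ± 2.56 CPM in WT EV lungs (SD, n = 3 each). Its log2 fold was lowest, at 0.68, when WT EV replicate 2 was left out, and highest, at 1.36, when replicate 1 of that group was. It was 0.67 without both libraries that stood apart. The Uhrf1 gene spans bases 56303321 to 56323486 of chromosome 17, plus strand, and 18.9% of its transcript's 50-base words occur in other genes, chiefly Gm5648. E2f1, an activating E2F factor, was at 17.0, 12.9 and 17.8 CPM in Tsc1-null EV lungs and 13.7, 11.2 and 10.7 CPM in WT EV lungs (log2 fold 0.39 ± 0.19 SE, limma adjusted p = 0.721), overlapping through Tsc1-null EV replicate 2. The G1/S cyclins Ccne1 and Ccne2 did not separate. Ccne1 ranged from 0.401 to 2.32 CPM in Tsc1-null EV lungs and from 0.294 to 1.59 CPM in WT EV lungs, and reached the mean of 1 only through the Tsc1-null EV group. Ccne2 had a log2 fold of -0.06.

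Both subunits of chromatin assembly factor 1 measured here, which places histones on copied DNA, were higher in each of the 3 Tsc1-null EV lungs. Chaf1b was at 8.22, 7.98 and 8.62 CPM in Tsc1-null EV lungs, against 7.44, 3.23 and 4.32 CPM in WT EV lungs (log2 fold 0.69 ± 0.27 SE, limma adjusted p = 0.721). As with Mcm6 and Uhrf1, WT EV replicate 1 was the nearest WT EV lung and replicate 2 the lowest, and without both libraries that stood apart the log2 fold of Chaf1b was 0.47. Chaf1a was at 20.2, 11.0 and 11.0 CPM in Tsc1-null EV lungs and 9.15, 8.08 and 9.99 CPM in WT EV lungs (log2 fold 0.53 ± 0.25 SE, limma adjusted p = 0.721). Here Tsc1-null EV replicate 1 alone was far above the rest, and without it the log2 fold was 0.26. Its exon bases lie to 48.6% under Ubxn6 on the opposite strand, which averaged 51.1 CPM in Tsc1-null EV lungs and 53.9 CPM in WT EV lungs.

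**Figure D4:**
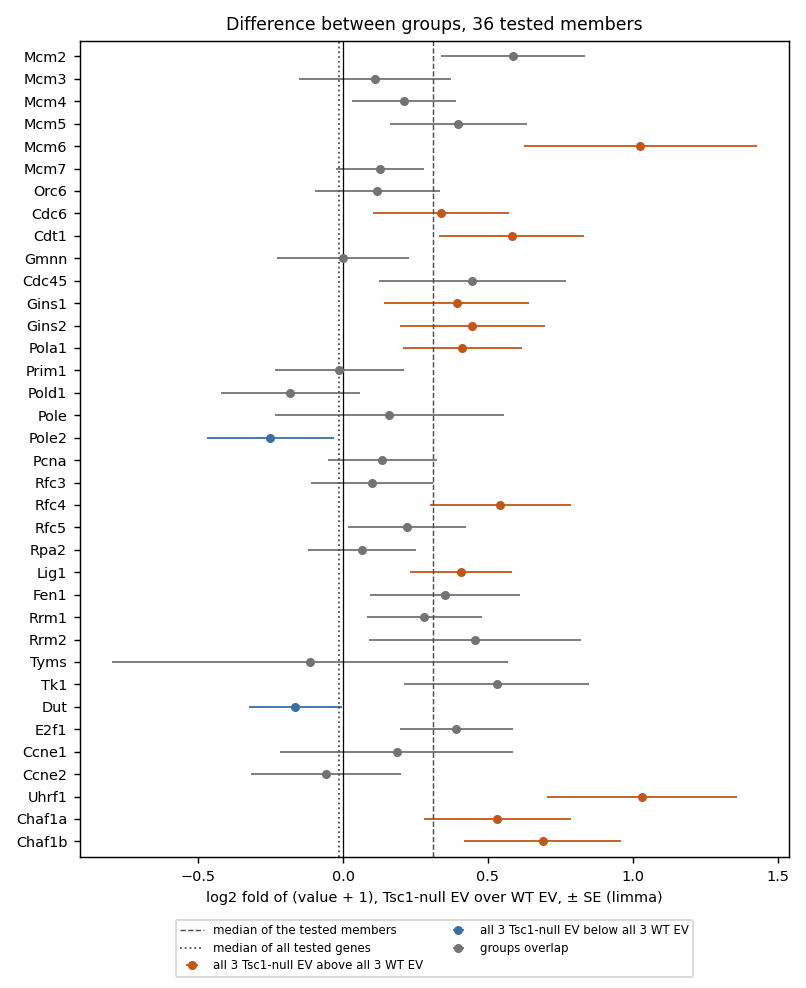
Log2 fold of value + 1 with its SE from limma for the 36 tested genes, where positive values are higher in Tsc1-null EV lungs; orange marks the 11 genes higher and blue the 2 lower in all 3 Tsc1-null EV lungs, and vertical lines mark 0 and the medians of the set (0.31) and of all tested genes (-0.02). Mcm6 and Uhrf1 lie farthest to the right at 1.03, and Tyms has the widest error.

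Genes whose promoters held E2F letters had a median log2 fold of 0.37 (20 tested genes, 17 above 0), and those without a median of 0.20 (10 tested genes, 8 above 0). Of the genes that were higher in each of the 3 Tsc1-null EV lungs, 9 had a promoter with these letters (9 of 20, where 7.18% of 1978 tested genes with E2F letters were higher in this way), and 0 had a promoter without them (0 of 10, where 6.97% of 8592 tested genes without were). No promoter was found for Gins1 and Gins2. The difference between the 2 kinds of promoter was not tested. Dut and E2f1, counted among the genes without E2F letters, were searched only inside the gene's span, so letters farther upstream would have been missed.

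Lists of further cell cycle genes put these values in context. The rest of the replication machinery, 38 genes such as Orc2, Rfc1 and Rpa1 of which 35 were tested, had 20 log2 folds above 0 and a median of 0.04, and its level relative to the WT EV mean stayed between -0.05 and 0.04 in all 6 libraries. Rfc2, of the clamp loader, lay above every WT EV lung in each of the 3 Tsc1-null EV lungs, at 43.7, 31.7 and 32.3 CPM, against 26.8, 28.5 and 27.0 CPM in WT EV lungs. Donson, a replication fork factor, was lower in all 3 at 7.22, 6.15 and 7.84 CPM, against 9.27, 11.3 and 9.99 CPM in WT EV lungs. Higher without overlap were 2 of the 35 (5.71%, where 6.86% of all tested genes were), and lower was 1 (2.86%, where 6.22% were). Both shares lay below those of all tested genes. None of the 35 passed limma's test.

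Other S-phase and E2F-linked genes had 21 of 26 tested log2 folds above 0 and a median of 0.15. Higher without overlap were 4 of them (15.4%, where 6.86% of all tested genes were), and lower was 1 (3.85%, where 6.22% were). Chek1, the S-phase checkpoint kinase, was at 3.61, 1.94 and 2.21 CPM in Tsc1-null EV lungs and 1.71, 1.03 and 1.11 CPM in WT EV lungs, without overlap. Mybl2, a partner of the complex that drives late cell cycle genes, lay lower in each of the 3 Tsc1-null EV lungs, at 1.40, 0.970 and 1.66 CPM against 2.07, 3.38 and 1.97 CPM in WT EV lungs. Both genes rest on few reads, as 1 read stood for 0.108 to 0.200 CPM depending on the library. Their limma adjusted p was 0.721 for each.

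Mitotic genes had 28 of 28 log2 folds above 0 and a median of 0.72, of which 3 (10.7%) did not overlap between groups, near the 6.86% of all tested genes. Top2a, the topoisomerase that untangles copied DNA, was at 42.1, 27.9 and 31.2 CPM in Tsc1-null EV lungs, against 25.0, 4.26 and 11.7 CPM in WT EV lungs (log2 fold 1.51 ± 0.49 SE, limma adjusted p = 0.721). Mki67, the proliferation marker Ki-67, overlapped, at 18.4, 34.7 and 34.5 CPM in Tsc1-null EV lungs and 38.4, 7.35 and 17.8 CPM in WT EV lungs. The mitotic level of WT EV replicate 1 was 0.79 above the WT EV mean, within the 0.61, 0.92 and 0.65 of the Tsc1-null EV libraries, and that of WT EV replicate 2 was -0.84. Without both libraries that stood apart the mitotic median was 0.35. The ordering of the WT EV libraries was thus the same for mitotic as for replication genes, with replicate 1 highest and replicate 2 lowest.

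**Figure D5:**
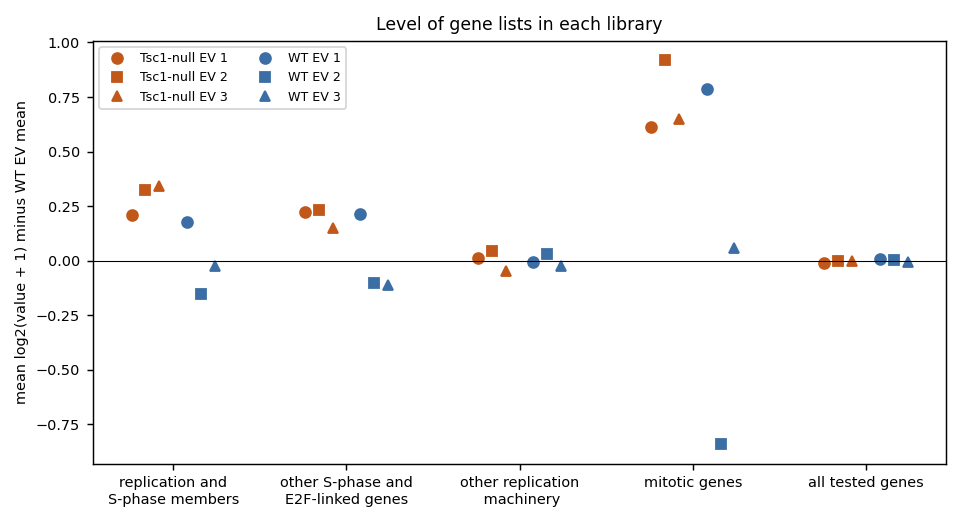
Mean log2(value + 1) of each gene list minus its WT EV mean, in the 3 Tsc1-null EV libraries (orange) and the 3 WT EV libraries (blue). The replication and S-phase genes range from 0.21 to 0.34 in Tsc1-null EV and from -0.15 to 0.18 in WT EV libraries, the rest of the replication machinery stays near 0, and mitotic genes spread from -0.84 to 0.79 among WT EV libraries.

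Brakes on entry to S phase were mixed. Cdkn1a, the CDK inhibitor p21, lay above every WT EV lung in each of the 3 Tsc1-null EV lungs, at 149.5, 159.7 and 216.7 CPM, against 122.0, 114.3 and 128.4 CPM in WT EV lungs (log2 fold 0.51 ± 0.17 SE, limma adjusted p = 0.721). Rb1, the pocket protein that holds E2F in check, was lower in all 3 at 29.1, 20.6 and 27.5 CPM, against 41.6, 31.6 and 36.8 CPM in WT EV lungs (log2 fold -0.50 ± 0.19 SE, limma adjusted p = 0.721). Of the 9 inhibitors and pocket proteins 3 were above 0, with a median of -0.21. Cdkn1a was the 1 of the 9 that was higher without overlap (11.1%, where 6.86% of all tested genes were), and Rb1 the 1 that was lower (11.1%, where 6.22% were). The D-type cyclins and their kinases had 4 of 5 above 0 and a median of 0.11, and Ccnd1, the most abundant, overlapped at 257.8 to 268.6 CPM in Tsc1-null EV lungs and 223.1 to 265.2 CPM in WT EV lungs. A comparison list of 7 relatives of the S-phase genes was below 0 for all 7, with a median of -0.18. Lower without overlap were 2 of the 7 (28.6%, where 6.22% of all tested genes were), and 0 were higher. Without both libraries that stood apart 1 of the 7 was above 0, with a median of -0.13. Among the 7, Rrm2b, the reductase subunit used outside S phase, was lower in each of the 3 Tsc1-null EV lungs, at 27.5, 22.1 and 24.4 CPM against 30.9, 29.7 and 33.9 CPM in WT EV lungs. Rrm2 had a log2 fold above 0, but its groups overlapped.

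Markers of cell types that could carry the replication transcripts were measured in the same libraries. Of 8 alveolar type 2 markers 7 were above 0 (summed level 22733 to 46432 CPM in Tsc1-null EV lungs and 26038 to 34238 CPM in WT EV lungs), and of 5 monocyte and interstitial macrophage markers 4 were (174 to 268 CPM in Tsc1-null EV lungs and 121 to 221 CPM in WT EV lungs). All 7 endothelial markers were below 0 (1920 to 3465 CPM in Tsc1-null EV lungs and 2935 to 3743 CPM in WT EV lungs), as were all 6 tested smooth muscle markers, which ELT3 cells can share (852 to 1416 CPM in Tsc1-null EV lungs and 1094 to 1461 CPM in WT EV lungs). Club and ciliated airway markers were above 0 for 6 of 6, and all 5 mesothelial markers were below 0 (53.3 to 403 CPM in Tsc1-null EV lungs and 364 to 988 CPM in WT EV lungs), as were all 5 markers of cardiac muscle (145 to 445 CPM in Tsc1-null EV lungs and 353 to 575 CPM in WT EV lungs). Of 5 alveolar macrophage markers 2 were above 0 (43.1 to 159 CPM in Tsc1-null EV lungs and 83.3 to 236 CPM in WT EV lungs). In the other lists measured, 2 of 6 fibroblast, 1 of 6 alveolar type 1, 2 of 5 neutrophil and 1 of 5 natural killer (NK) cell markers were above 0. So were 0 of 5 megakaryocyte and platelet markers and 0 of 1 tested B and T cell marker. Of 7 myeloid precursor markers 2 were abundant enough to test (mostly Ltf, summed level 17.3 to 159 CPM in Tsc1-null EV lungs and 6.76 to 103 CPM in WT EV lungs), and of 6 erythroid precursor markers 3 were (mostly Tfrc, summed level 72.8 to 145 CPM in Tsc1-null EV lungs and 70.6 to 104 CPM in WT EV lungs). Defining markers of these blood precursors were at or near 0. Elane, of myeloid precursors, was 0 in every library and Mpo at most 0.221 CPM, and Klf1, of erythroid precursors, was 0 in all 3 Tsc1-null EV lungs and at most 0.441 CPM in WT EV lungs. Several of these lists shifted without both libraries that stood apart. Then 4 of 5 alveolar macrophage markers were above 0 (median log2 fold 0.52, against -0.10 with all libraries). The mesothelial median was -0.26, against -1.82 with all libraries, with 1 of 5 above 0. The airway median was 0.12, against 0.52, with 5 of 6 above 0. Above 0 were then 8 of 8 alveolar type 2, 4 of 5 monocyte and interstitial macrophage, 0 of 7 endothelial, 2 of 6 smooth muscle and 1 of 5 cardiac markers, 1 of 2 tested myeloid precursor markers and 1 of 3 tested erythroid precursor markers. The other counts were then 2 of 6 fibroblast, 1 of 6 alveolar type 1, 3 of 5 neutrophil, 2 of 5 NK cell and 1 of 5 megakaryocyte and platelet markers, and 0 of 1 tested B and T cell marker. The part of each cell type in the replication genes was not tested. Mouse reads and reads from rat ELT3 cells are not separated in the deposited values, so the share of the rat cells in these transcripts was not tested either.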

How the data were processed

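Lung RNA of 6 mice was sequenced, and the deposited table gives a TMM-normalized signal per gene and library, taken here as TMM-normalized CPM. The submitters' processing notes name Bowtie2 2.1.0, RSEM 1.2.15, edgeR and build mm10, and the sources used here do not give the annotation, filters or use of strand. In the 6 libraries 99.9986% of values were within 0.001 of a whole number of reads, so reads were recovered for the count tests (5101413 to 9358820 per library). Such totals leave 13 of the 38 genes with fewer than 20 reads in some library. Among the deposited symbols, 27 had turned to dates.

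Genes with a mean value of at least 1 were tested as log2(value + 1) in limma 3.58.1 (R 4.3.3) with a mean-variance trend, and p-values were adjusted by Benjamini-Hochberg over all 14159 genes. The steps were tested on simulated data. Alternatives were edgeR 4.0.16 and DESeq2 1.42.0 on recovered reads, other pseudocounts, filters and scalings, sample weights and libraries left out. Any of the 38 genes could be named, and of other lists up to 4 genes with the smallest p, the most abundant, and Mki67, Top2a, Malat1 and Rn45s. Elane, Mpo, Klf1 and the genes that overlap the 38 were chosen after their values were seen. The members and lists were chosen with earlier results of these data known. Overlaps and transcript lengths come from GENCODE M21 and promoters from RefSeq, both on GRCm38. Gm5487, Pcna-ps2 and Gm10143 had no row under those symbols in the deposited table, so their own levels could not be given.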

Additional observations from a re-analysis of the deposited data

How the results depend on the processing

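The median log2 fold of the replication genes stayed above 0 under all 18 alternatives, between 0.21 and 0.43, and the number above 0 stayed within 1.5 times of 30. The number of all genes called was 0, against 1050 with sample weights, 12 with DESeq2, 25 without both libraries that stood apart and 0 to 2 with 1 library left out. The 6 replication genes at an unadjusted p under 0.05 on the higher side (16.7%, against 3.6% of all tested genes) became 16 with sample weights (44.4%, against 14.1% of all tested genes), 3 with DESeq2 (7.89%, against 3.24%) and 1 to 8 with 1 library left out (2.78% to 22.2%, against 1.94% to 5.23%). That share lay close to the share of all genes when Tsc1-null EV replicate 3 was left out (5.56%, against 5.23%) and when WT EV replicate 2 was (2.78%, against 1.94%). The 11 that were higher without overlap (30.6%, against 6.86% of all tested genes) became 6 with a mean of at least 5 (24% of 25 genes tested, against 6.86%), 18 without both libraries that stood apart (50.0%, against 20.8%) and 11 to 20 with 1 library left out (30.6% to 55.6%, against 9.10% to 14.9%). The direction turned in at least 1 alternative for 12 genes, each with a log2 fold of at most 0.19 in size, and held for 24. With sample weights the log2 fold was 0.11 for Ccne2, -0.035 for Orc6 and 0.10 for Prim1. With a pseudocount of 0.1 it was -0.00042 for Gmnn. With edgeR it was 0.027 for Prim1 and 0.085 for Tyms, and with DESeq2 0.10 for Tyms. Without both libraries it was 0.052 for Ccne2, -0.056 for Gmnn, -0.12 for Orc6, -0.0017 for Pcna, 0.15 for Pold1 and 0.16 for Prim1. With 1 library left out it ran from -0.15 to 0.47 for Ccne1, from -0.25 to 0.11 for Ccne2, from -0.17 to 0.19 for Gmnn, from -0.071 to 0.34 for Mcm3, from -0.083 to 0.23 for Orc6, from -0.051 to 0.24 for Pcna, from -0.36 to 0.035 for Pold1, from -0.18 to 0.61 for Pole, from -0.14 to 0.17 for Prim1, from -0.060 to 0.20 for Rfc3, from -0.066 to 0.17 for Rpa2 and from -0.90 to 0.47 for Tyms. The cause of these changes was not tested. No paired analysis was possible because the labels number the samples in one run and give the groups no shared replicate numbers. Depth limits the rarest genes, and for 13 of the 38 some library held fewer than 20 reads.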
